A study of Mus musculus with 11 samples.

Results

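miR-191-5p and miR-425-5p (mmu-miR-191-5p and mmu-miR-425-5p in the files) are the main arms of 2 neighbouring microRNA (miRNA) hairpins that lie within the gene Dalrd3. They were chosen from a table of mouse small RNA counts for their abundance in wild-type (WT) sperm, and they are 2 of the 2304 features listed there, of which 1592 are mature miRNAs and 712 are endogenous siRNAs. The WT sperm read counts therefore chose them: in the 2 WT sperm libraries miR-191-5p ranked 2 and 8 by reads and miR-425-5p ranked 9 and 25. Because of that choice, their levels against WT sperm are given below as a description without a test, whereas Dicer cKO against Drosha cKO sperm was tested; the WT libraries are no side of that comparison, though they share its scaling, low-count filter and estimate of spread.

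The study sequenced small RNA in 11 libraries of sperm, oocytes and embryos at the pronuclear (2PN) stage, to ask what Dicer and Drosha in the male germ line contribute to the small RNAs of sperm and of the embryo. Dicer cKO sperm gave 2 libraries, Drosha cKO sperm 3 and WT sperm 2. All sperm came from the cauda epididymis of adult males on the C57BL/6 background, and cKO stands for a conditional knockout made with Cre and loxP in the germ line. The Cre driver is not named in the labels, which also leave out whether WT males carried floxed alleles or Cre, and whether replicates were different males. The deletion is described for germ cells, not for the epithelium or other cells of the epididymis. Embryos at the 2PN stage were made by injecting single sperm into oocytes (ICSI), with 1 library each for Dicer cKO, Drosha cKO and WT sperm, and 1 library came from WT oocytes taken after superovulation. Transcripts of Dicer1 and Drosha are not among the listed features, which leaves the knockouts themselves unchecked here.

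miRNA genes are transcribed as long primary transcripts, from which the nuclear enzyme Drosha cuts a hairpin. Dicer then cuts the hairpin in the cytoplasm into a short duplex, and 1 strand of it, the main arm, is kept by an Argonaute protein and guides it to messenger RNAs through the seed, the bases 2 to 8. miR-191 and miR-425 are made from the same transcript in many tissues and cell types, and miR-191-5p is so widespread that it is often used as a reference in miRNA quantification.

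In GRCm38.p6 the Mir191 hairpin occupies chromosome 9, bases 108568319 to 108568392, and the Mir425 hairpin bases 108568777 to 108568861, both on the plus strand with 384 bases between them. RefSeq places Dalrd3, also on the plus strand, at 108567484 to 108572773 on the same chromosome, so that both hairpins fall inside its span; no other RefSeq gene overlapped them, and their position relative to the exons of Dalrd3 was not analysed here. The hairpins are shown first, from RefSeq, 5′ to 3′, with the 5p arm and then the 3p arm in capitals.
Mir191 hairpin: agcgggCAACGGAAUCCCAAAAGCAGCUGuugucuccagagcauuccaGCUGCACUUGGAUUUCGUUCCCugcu
Mir425 hairpin: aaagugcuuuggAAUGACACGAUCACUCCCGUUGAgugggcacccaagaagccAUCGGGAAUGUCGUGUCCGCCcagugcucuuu

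The mature main arms are shown with the seed in capitals, because the seed sets which messenger RNAs each can pair with, together with the 1 other mouse miRNA of the table that shares a seed with them.
miR-191-5p: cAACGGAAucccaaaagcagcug
miR-425-5p: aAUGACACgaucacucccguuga
miR-489-3p: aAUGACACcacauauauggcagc
The members have different seeds, and the same base at 5 of 23 positions counted from the 5′ end. No other of the 1738 mature miRNAs in the RefSeq table has the seed of miR-191-5p. The seed of miR-425-5p is shared with miR-489-3p, from chromosome 6, whose first 8 bases are the same.

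Counts per library differed widely in depth. The sperm libraries held 12003 to 278890 listed reads, the lowest being Drosha cKO replicates 2 and 3 with 12003 and 15921, and the oocyte and 2PN libraries held 2951 to 8967. Levels are given as CPM, the reads of a feature per 1000000 listed reads, with 95% exact (Clopper-Pearson) intervals where depth limits them; intervals cover counting error only. Fold changes in sperm are log2 changes from a fit with TMM scaling, which corrects each library for its composition and so differs from a ratio of CPM. The TMM factors were 1.05 and 1.06 in Dicer cKO, 1.19 to 1.30 in Drosha cKO, and 0.899 and 0.497 in WT sperm.

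miR-191-5p was lower in both cKO genotypes than in WT sperm but remained among the abundant features. It stood at 18018 and 11633 CPM in the Dicer cKO libraries, at 30535, 11747 and 12876 CPM in the Drosha cKO libraries, and at 71289 and 39625 CPM in the WT libraries. Every cKO library was below both WT libraries, and Drosha cKO replicate 1 was the highest of the cKO libraries. In the cKO libraries it ranked 20 and 25 (Dicer) and 7, 21 and 23 (Drosha) by reads. The mean was 14825 ± 4515 CPM in Dicer cKO sperm (SD, n = 2) and 18386 ± 10536 CPM in Drosha cKO sperm (n = 3), which is 26.7% and 33.2% of the mean of 55457 ± 22390 CPM in WT sperm (n = 2). With TMM scaling the WT libraries lay close together for miR-191-5p, at 79283 and 79792 TMM-scaled CPM. For miR-425-5p they stayed apart, at 31510 and 16036. The log2 change was −2.50 (SE 0.54) in Dicer cKO and −2.41 (SE 0.47) in Drosha cKO sperm. In bulk samples such as these, fewer cells of a type and less RNA per cell cannot be told apart.

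miR-425-5p was also lower in both genotypes. It stood at 2195 and 1600 CPM in the Dicer cKO libraries, at 4666, 1166 and 2450 CPM in the Drosha cKO libraries, and at 28333 and 7964 CPM in the WT libraries. Again no cKO library reached the lower WT library, while the WT libraries themselves differed more than the cKO libraries of either genotype did in absolute level. By reads it ranked 60 and 72 in the Dicer cKO libraries, and 46, 90 and 71 in the Drosha cKO libraries. The mean was 1898 ± 421 CPM in Dicer cKO sperm (SD, n = 2) and 2761 ± 1771 CPM in Drosha cKO sperm (n = 3), or 10.5% and 15.2% of the mean of 18148 ± 14403 CPM in WT sperm (n = 2). The log2 change was −3.72 (SE 0.66) in Dicer cKO and −3.37 (SE 0.56) in Drosha cKO sperm. Drosha cKO replicate 2 held only 14 reads of it, with a 95% exact interval of 638 to 1956 CPM.

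**Figure D1:**
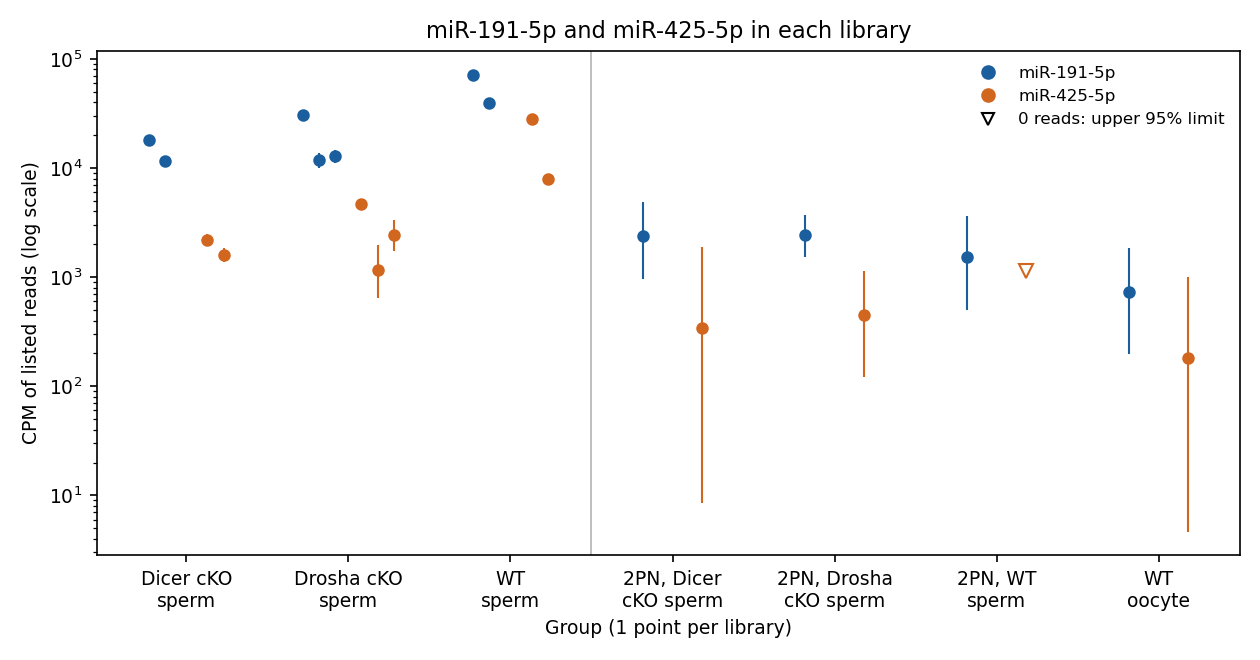
CPM of listed reads on a log scale for miR-191-5p (blue) and miR-425-5p (orange) in each of the 11 libraries; bars are 95% exact intervals of counting error, and the open triangle marks the upper limit where 0 reads were counted. Both miRNAs are lower in every cKO sperm library than in the WT sperm libraries, and oocyte and 2PN libraries lie lower still, with wide intervals. For miR-425-5p the oocyte and 2PN intervals overlap that of Drosha cKO sperm replicate 2, so a lower level than in cKO sperm is not resolved.

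Both members had non-overlapping groups in TMM-scaled CPM, lower in the cKO libraries than in WT. This was also the case for 39.7% of the 335 tested features in Dicer cKO and 36.7% in Drosha cKO sperm, and since WT sperm chose the members nothing is read from their count. Among all tested features 27.2% had a lower log2 change than miR-191-5p in Dicer cKO sperm and 28.7% in Drosha cKO sperm; for miR-425-5p these shares were 19.4% and 19.7%. The cKO values of both comparisons are set against the same 2 WT libraries. On the authors' RPM scale each cKO library was again below both WT libraries, but the order within and between the other groups differed from that in CPM. miR-191-5p had 797 and 816 RPM in Dicer cKO, 823, 342 and 272 RPM in Drosha cKO, and 1537 and 3984 RPM in WT sperm. miR-425-5p had 97.1 and 112 RPM in Dicer cKO, 126, 33.9 and 51.7 RPM in Drosha cKO, and 611 and 801 RPM in WT sperm. By mean RPM Dicer cKO was above Drosha cKO sperm for both members (miR-191-5p 807 against 479, miR-425-5p 105 against 70.5), by mean CPM below it, and WT replicate 2 was the higher WT library in RPM and the lower in CPM.

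The size of these changes moved with single libraries. Without Dicer cKO replicate 1 the log2 change in Dicer cKO sperm was −3.24 for miR-191-5p and −4.44 for miR-425-5p. Without WT replicate 2, miR-425-5p changed by −4.65 in Dicer cKO and −4.29 in Drosha cKO sperm, and without either Dicer cKO library it changed by −4.03 and −4.01 in Drosha cKO sperm. With totals of listed reads in place of TMM scaling, miR-191-5p changed by −1.90 and −1.58 in Dicer cKO and Drosha cKO sperm and miR-425-5p by −3.25 and −2.66, while the median of all tested features moved to 0.62 and 1.04 (0.03 and 0.05 with TMM).

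Neither member was shown to differ between the knockouts. miR-191-5p in Dicer cKO sperm lay within the range of the Drosha cKO libraries at 1 of its 2 values and just under it at the other, and miR-425-5p lay within it at both. Of the tested features 42.1% had non-overlapping groups in TMM-scaled CPM in this comparison, and neither member was among them. The log2 change, Dicer cKO minus Drosha cKO, was −0.09 for miR-191-5p (SE 0.47, 95% interval −1.07 to 0.90, edgeR adjusted p = 0.945). For miR-425-5p it was −0.36 (SE 0.55, 95% interval −1.53 to 0.82, edgeR adjusted p = 0.755). The intervals therefore still hold differences of about 1 log2 unit in either direction for miR-191-5p. The edgeR test called 0 of 335 features in this comparison (0%), with 65 at an unadjusted p under 0.05; DESeq2 called 16 and limma on log2(RPM + 1) called 2. That count was 36 without WT replicate 1, 39 without WT replicate 2, 7 without Drosha cKO replicate 2, 1 without Dicer cKO replicate 1 and 31 with only the Dicer cKO and Drosha cKO libraries fitted. In none of 19 alternatives was either member called. The sign of both turned positive in 8 of them, while the lowest values were −0.81 for miR-191-5p and −1.06 for miR-425-5p, without Drosha cKO replicates 2 and 3; the alternatives gave edgeR, DESeq2 or limma adjusted p from 0.367 to 1 for miR-191-5p and from 0.417 to 1 for miR-425-5p.

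Since the members derive from neighbouring hairpins and are counted in the same library, their ratio needs no scaling between libraries. There were 8.21 and 7.27 miR-191-5p reads per miR-425-5p read in the Dicer cKO libraries, 6.54, 10.1 and 5.26 in the Drosha cKO libraries, and 2.52 and 4.98 in the WT libraries. All 5 cKO libraries were above both WT libraries, but Drosha cKO replicate 3, with a 95% exact interval of 3.72 to 7.61, was close to WT replicate 2, with 4.75 to 5.21. The WT libraries differed from each other by more than counting error, the interval of WT replicate 1 being 2.39 to 2.65. On the log2 scale the mean ratio was 2.95 ± 0.12 in Dicer cKO (SD, n = 2), 2.81 ± 0.48 in Drosha cKO (n = 3) and 1.82 ± 0.70 in WT sperm (n = 2). The Dicer cKO minus WT difference was 1.13 and the Drosha cKO minus WT difference 0.99, both as descriptions; without WT replicate 1 they were 0.63 and 0.50, and without WT replicate 2 they were 1.62 and 1.48. The Dicer cKO minus Drosha cKO difference of 0.14 did not pass an exact two-sided permutation test over libraries (p = 0.7, where 10 splits allow 0.1 at the smallest), and it was −0.07 without Drosha cKO replicate 3.

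**Figure D2:**
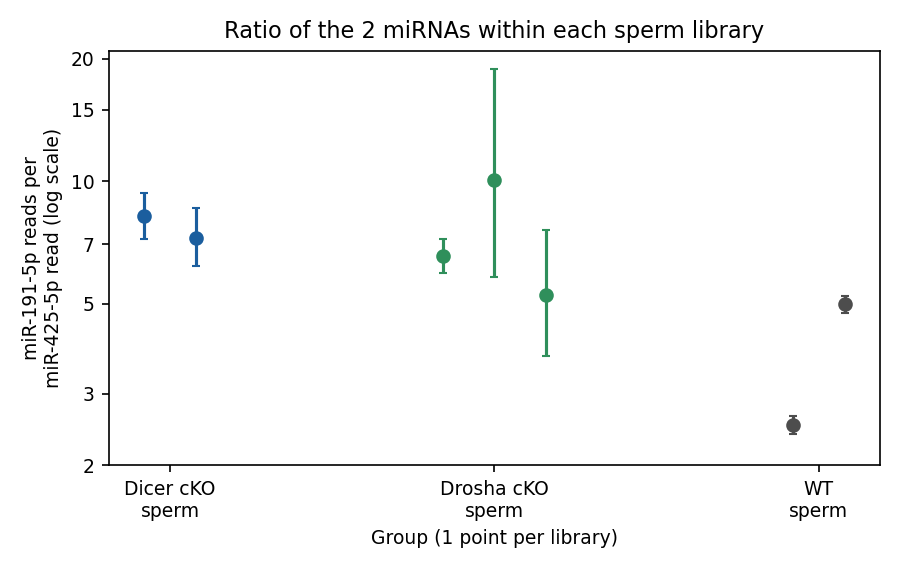
miR-191-5p reads per miR-425-5p read in each sperm library, on a log scale, with 95% exact intervals of counting error. The cKO libraries lie at 5.26 to 10.1 and the WT libraries at 2.52 and 4.98.

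The other arms of the hairpins, which did not enter the choice, were rare in sperm. miR-191-3p had 3 and 0 reads in the Dicer cKO libraries, 2, 0 and 0 in the Drosha cKO libraries, and 5 and 19 in the WT libraries. Over all sperm libraries it made up 0.125% of the reads of its hairpin (29 reads against 23184 of the 5p arm, 95% exact interval 0.084 to 0.179%). By genotype this share was 0.0863% in Dicer cKO (0.0178 to 0.252%), 0.0583% in Drosha cKO (0.0071 to 0.210%) and 0.147% in WT sperm (0.0943 to 0.219%). These intervals pool the reads of all libraries of a genotype and leave out the spread between libraries. They overlap, which is not a test of a difference in arm use. miR-425-3p had 3 reads in sperm, 1 in each genotype, against 5267 of miR-425-5p. In the oocyte and 2PN libraries together miR-425-3p had 3 reads and miR-425-5p 6, a 3p share of 33.3% with a 95% exact interval of 7.49 to 70.1%; 2PN embryos from WT sperm held 2 reads of the 3p arm and 0 of the 5p arm. miR-191-3p had 0 reads there against 38 of miR-191-5p. Neither arm passed the low-count filter. Without that filter miR-191-3p had log2 changes of −2.40 (SE 1.38, edgeR adjusted p = 0.558) in Dicer cKO and −3.10 (SE 1.39, edgeR adjusted p = 0.29) in Drosha cKO sperm, and neither passed.

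miR-489-3p, which carries the seed of miR-425-5p, was far rarer than it in sperm. It had 4 and 5 reads in the Dicer cKO libraries, 0 in all 3 Drosha cKO libraries and 0 in both WT libraries. By the upper 95% exact limit, a count of 0 allows up to 36.5, 307.3 and 231.7 CPM in the Drosha cKO libraries. In the WT libraries it allows up to 50.3 and 13.2 CPM, against 32.5 and 46.2 CPM in Dicer cKO sperm. These limits lie on both sides of the Dicer cKO values, and no test was made.

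miR-191-5p and miR-425-5p are usually counted among broadly expressed miRNAs, and 14 others of that kind were examined beside them. Of these 13 were tested (miR-151-3p did not pass the filter); 5 fell and 0 rose in Dicer cKO sperm, and 5 fell and 0 rose in Drosha cKO sperm. Among all tested features 31% were called lower and 16.1% higher in Dicer cKO, and 33.1% lower and 22.1% higher in Drosha cKO sperm, so the share of the list that fell, 5 of 13, is near the background. Of the calls 65.8% were lower in Dicer cKO and 60% in Drosha cKO sperm, against 47.4% and 39.9% with totals of listed reads alone and 59.8% and 81.6% with the authors' divisor as library size. The list had a median log2 change of −0.54 in Dicer cKO and −0.98 in Drosha cKO sperm, against 0.03 and 0.05 over all tested features. With edgeR, miR-16-5p, a miRNA of the miR-15/16 family that restrains the cell cycle, changed by −2.66 (SE 0.59, adjusted p = 0.00167) in Dicer cKO and −3.13 (SE 0.52, adjusted p = 0.000192) in Drosha cKO sperm. miR-93-5p, a member of the miR-17 seed family, changed by −3.23 in Dicer cKO (SE 0.57, adjusted p = 0.000408 by edgeR) and by −3.50 in Drosha cKO sperm (SE 0.50, adjusted p = 7.54e-05). miR-103-3p changed by −1.54 and −1.50, miR-151-5p by −1.62 and −1.72, and miR-25-3p, named after its values were seen, by −2.14 and −3.10, all called. miR-26a-5p, a widespread miRNA, did not pass the test, at 1.01 in Dicer cKO (SE 0.44, adjusted p = 0.0689 by edgeR) and 0.35 in Drosha cKO sperm (SE 0.40, adjusted p = 0.48); its mean was 25683 CPM in Dicer cKO, 19607 CPM in Drosha cKO and 7948 CPM in WT sperm.

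In Dicer cKO sperm the 5 that fell became 3 without Dicer cKO replicate 1, 2 without Dicer cKO replicate 2, 3 with totals of listed reads alone and 0 to 2 with the authors' divisor, the other low-count filters or limma, and the median turned positive under these except in the fits that leave out a library. The 0 of the list called higher in Dicer cKO sperm became up to 3 in the alternatives. miR-26a-5p stayed uncalled in Dicer cKO sperm in 15 of 19 alternatives. The fits that called it higher included those without Drosha cKO replicate 1 or 2 and with totals alone (adjusted p = 0.0257, 0.0359 and 0.00103 by edgeR). In Drosha cKO sperm it was called higher with totals alone (edgeR adjusted p = 0.00284). In Dicer cKO sperm miR-93-5p kept its call in 18 of 19 alternatives, miR-16-5p in 15 (adjusted p up to 0.264 by limma), miR-25-3p and miR-151-5p in 12 each and miR-103-3p in 11. In Drosha cKO sperm miR-16-5p, miR-93-5p and miR-25-3p kept it in all 19, and miR-103-3p and miR-151-5p in 14 each.

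**Figure D3:**
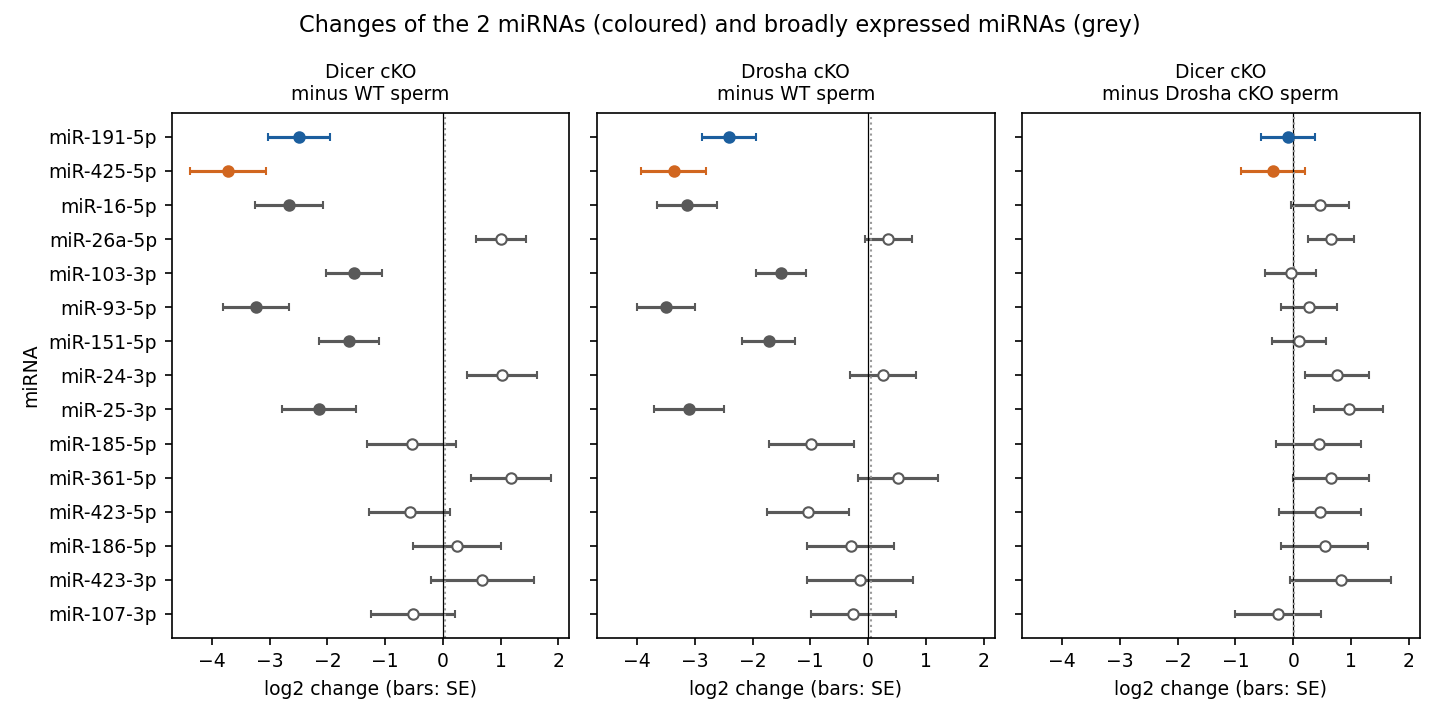
Log2 changes with their standard errors for miR-191-5p (blue), miR-425-5p (orange) and the 13 tested broadly expressed miRNAs (grey, filled where called by edgeR) in Dicer cKO minus WT, Drosha cKO minus WT and Dicer cKO minus Drosha cKO sperm; the dotted line is the median of all tested features. In the first pair of panels both coloured points lie left of 0, beside miR-16-5p and miR-93-5p, and in the last panel their bars cross 0.

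The features whose sperm profiles were most like those of the members were, in part, miRNAs of testis germ cells. Likeness was measured as Pearson's r of TMM-scaled log2 CPM over the 7 sperm libraries among the 287 features that averaged 100 CPM or more; it is a description, and the libraries share their scaling and the contrast of WT with cKO. The median r over these features was 0.01 for miR-191-5p and 0.02 for miR-425-5p. For miR-191-5p the nearest were miR-743b-3p (r = 0.989), miR-93-5p (0.976), miR-425-5p (0.974), miR-103-3p (0.970) and miR-470-5p (0.968). For miR-425-5p they were miR-743b-3p (r = 0.982), miR-881-3p (0.9748), miR-191-5p (0.974), miR-103-3p (0.973) and miR-743a-3p (0.965). Thus each member ranked 3 in the other's list. miR-743a-3p, miR-743b-3p, miR-881-3p and miR-470-5p come from the X-linked miRNA group near Fmr1, which is expressed in the testis. Their changes were larger than those of miR-191-5p, but barely so for miR-470-5p in Drosha cKO sperm (−2.51, SE 0.68, against −2.41, SE 0.47). miR-470-5p changed less than miR-425-5p in Dicer cKO (−3.15 against −3.72) and in Drosha cKO sperm (−2.51 against −3.37). miR-743b-3p, which ranked 1 for both members, had log2 changes of −5.15 in Dicer cKO and −4.36 in Drosha cKO sperm. By contrast miR-103-3p, which ranked 4 for both, had −1.54 and −1.50.

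**Figure D4:**
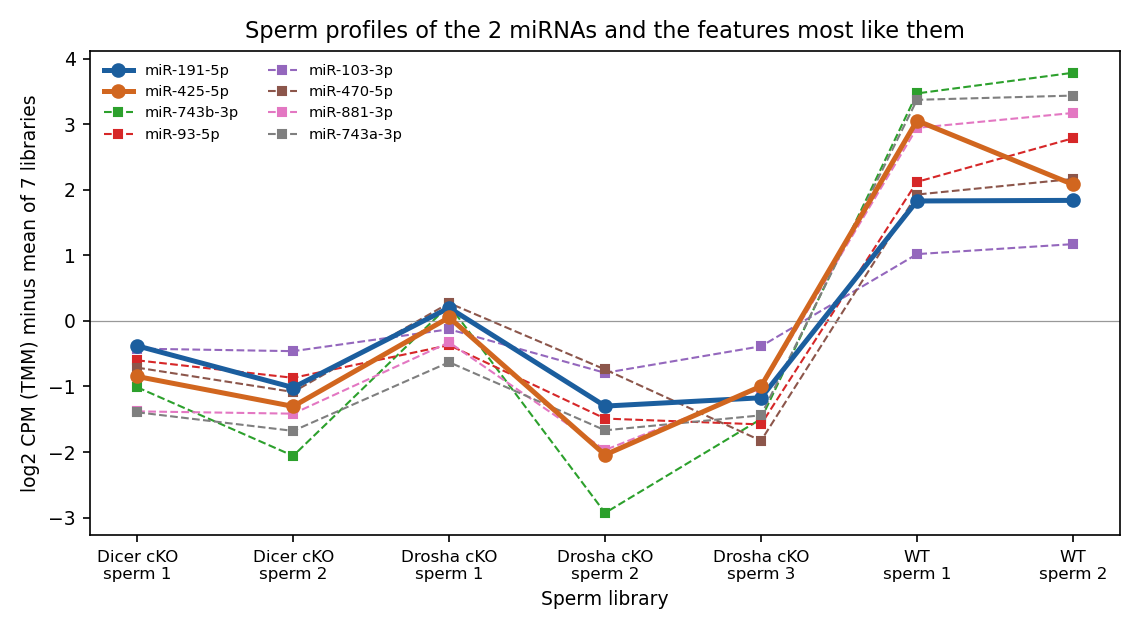
TMM-scaled log2 CPM of each feature minus its own mean over the 7 sperm libraries, for miR-191-5p, miR-425-5p and the features with the highest r to either. All lines are highest in the WT libraries, and within the Drosha cKO group replicate 1 lies above replicates 2 and 3 for both miR-191-5p and miR-425-5p.

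Markers of other cell types moved with these results, and their part in them was not tested. Together the members made up 2.02% and 1.32% of listed reads in the Dicer cKO libraries, 1.29% to 3.52% in the Drosha cKO libraries, and 4.76% to 9.96% in WT sperm. The 9 male germ cell markers (miR-34b, miR-34c and miR-449a with 6 X-linked testis miRNAs) summed to 0.852% to 0.877% in Dicer cKO, 1.43% to 2.51% in Drosha cKO and 16.4% to 18.2% in WT sperm, and 9 of 9 were lower without overlap in each knockout. The 5 epithelial markers of the miR-200 family summed to 13.01% to 16.05% in Dicer cKO, 11.04% to 13.91% in Drosha cKO and 1.57% to 1.81% in WT sperm, and 5 of 5 were higher without overlap in each knockout. Blood cell markers summed to 5.02% to 5.05%, 2.16% to 2.47% and 0.513% to 0.525% in the same order of groups, and stromal markers to 1.87% to 2.61%, 1.08% to 1.69% and 0.315% to 0.795%. Of 7 blood cell markers 6 were higher without overlap in Dicer cKO and 4 in Drosha cKO sperm, and of 5 stromal markers 4 and 2. In Dicer cKO sperm edgeR called 4 of 7 blood cell and 2 of 5 stromal markers higher. In Drosha cKO sperm it called 0 of 5 stromal markers. It called 5 of 5 epithelial markers higher in each knockout. In Drosha cKO sperm this became 0 of 5 with the authors' divisor, without a low-count filter or with limma on log2(RPM + 0.1). It also rested on the WT libraries. The median log2 change of the epithelial markers in Drosha cKO sperm was 1.84 in the main fit. It was 0.91 without WT replicate 1 and 1.86 without WT replicate 2. The blood cell list did not move as 1: in Drosha cKO sperm edgeR called 4 of 7 higher and 1 lower, miR-142-5p, at −2.68 (SE 0.97, adjusted p = 0.0277), with overlapping groups and named after its values were seen. These blood cell calls became 0 higher and 1 lower without a low-count filter. They became 5 higher and 0 lower with totals of listed reads alone, and 2 higher and 0 lower with limma on log2(RPM + 1). Over all tested features 38.2% were higher without overlap in Dicer cKO and 28.7% in Drosha cKO sperm. Lower without overlap were 39.7% in Dicer cKO and 36.7% in Drosha cKO sperm. By edgeR 16.1% of the tested features were called higher and 31% lower in Dicer cKO sperm. In Drosha cKO sperm these shares were 22.1% and 33.1%. No defining marker was at 0 in every library of a sperm group; miR-155-5p, a blood cell marker, was at 0 in Drosha cKO replicate 3.

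**Figure D5:**
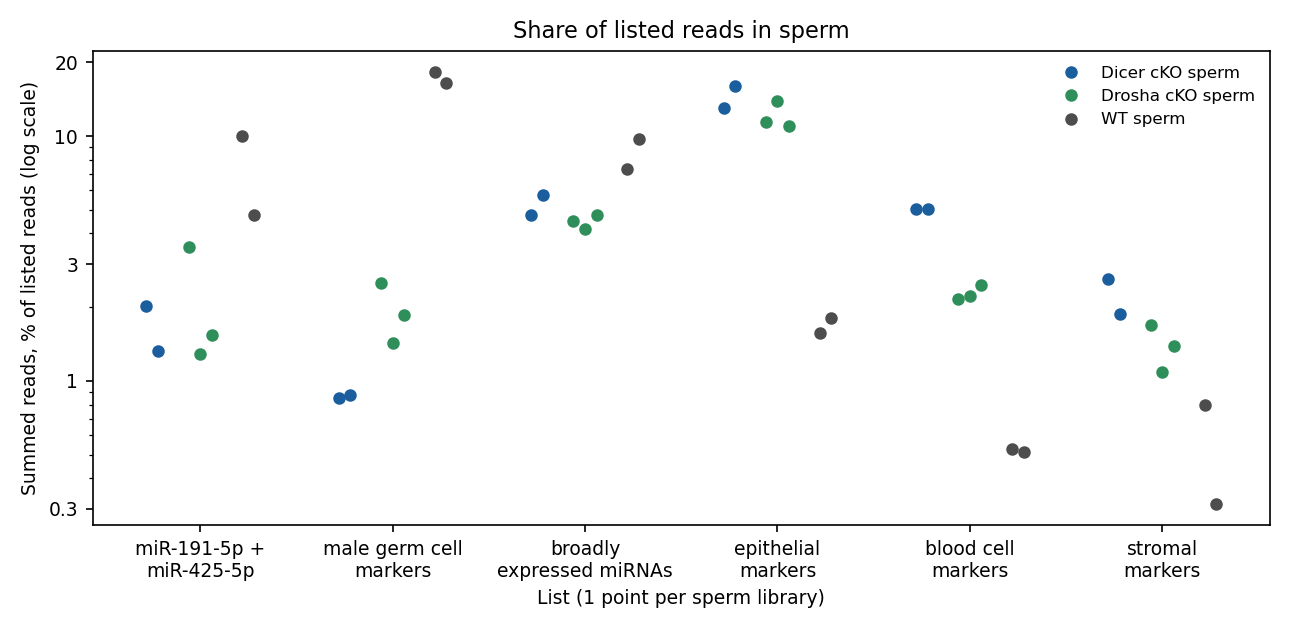
Summed reads as a percentage of listed reads, on a log scale, for miR-191-5p plus miR-425-5p and for the marker and broadly expressed lists, with 1 point per sperm library. The members' share lies lower in the cKO libraries, as do the germ cell markers, while the sums of the epithelial, blood cell and stromal markers lie higher there.

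In embryos and oocytes both members were scarce, and 1 library per group leaves no replicate error. miR-191-5p had 7 reads in 2PN embryos from Dicer cKO sperm, 22 in those from Drosha cKO sperm, 5 in those from WT sperm and 4 in WT oocytes. This corresponds to 2372 CPM (95% exact interval 954 to 4881), 2453 CPM (1538 to 3712), 1542 CPM (501 to 3594) and 723 CPM (197 to 1851). miR-425-5p had 1, 4, 0 and 1 reads in these libraries, and the 0 reads in 2PN embryos from WT sperm allow up to 1137 CPM (upper 95% exact limit). All 4 intervals of miR-191-5p overlap, which is not a test of a difference. Its CPM ratio was 1.54 in 2PN embryos from Dicer cKO sperm over those from WT sperm (95% exact interval 0.42 to 6.15) and 1.59 in those from Drosha cKO sperm over those from WT sperm (0.588 to 5.38). It was 2.13 in 2PN embryos from WT sperm over WT oocytes (0.459 to 10.7). With the authors' divisor as denominator these ratios were 0.81 (0.221 to 3.23), 3.14 (1.16 to 10.6) and 1.63 (0.351 to 8.22), so that the direction for Dicer cKO turned and the interval for Drosha cKO no longer held 1. Per listed reads the interval of each of these ratios held 1, and for Drosha cKO sperm this depended on the denominator. No ratio of 2PN embryos from either kind of cKO sperm to WT oocytes was taken.

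Set against WT sperm, which chose the members, the WT oocyte library was 98.6-fold lower in miR-191-5p CPM than WT sperm replicate 1 (95% exact interval 38.5 to 362) and 54.8-fold lower than replicate 2 (21.4 to 201). The 2PN library from WT sperm was 46.2-fold (19.8 to 142) and 25.7-fold lower (11.01 to 79.17). Ordered by mean CPM, miR-191-5p was lowest in the WT oocyte, followed by 2PN embryos from WT sperm, from Dicer cKO sperm and from Drosha cKO sperm, then by sperm of Dicer cKO, of Drosha cKO and of WT males. By mean RPM, 2PN embryos from Dicer cKO sperm came below those from WT sperm, and Drosha cKO sperm below Dicer cKO sperm. Neighbours within the oocyte and 2PN group overlapped in their intervals, and Dicer cKO and Drosha cKO sperm overlapped in their libraries. miR-489-3p, the seed partner of miR-425-5p, had 2 reads in 2PN embryos from Dicer cKO sperm, 6 in those from Drosha cKO sperm, 1 in those from WT sperm and 1 in oocytes, so that in these libraries the pair was counted at similar low numbers.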

How the data were processed

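The authors deposited raw read counts per feature and, as a separate table, RPM values. The submitters' processing notes name Bowtie and mm10, without a version; neither the counting rule nor the miRNA release is stated there. In the deposited RPM table each count is divided by 1 whole number per library (412523 to 3743577), whose meaning is not given. The series text names the Ion Torrent Proton and duplicates, while the labels name Illumina library preparation and the group sizes followed here. Sperm counts of 7 libraries were fitted in edgeR 4.0.16 (R 4.3.3) with TMM factors, filterByExpr (335 features tested) and the two-sided quasi-likelihood test, adjusting p over all tested features by Benjamini-Hochberg (threshold 0.05). The fit was also run on simulated data in which changes had random signs. That setting did not test the scaling under a shift in composition between groups. The common biological coefficient of variation was 0.459. Replicates varied beyond counting error. The chi-square per degree of freedom was 5.74 to 15.4 between libraries of the same knockout and 42.0 between the WT libraries. Since no label says that replicates were different males, p-values measure only the spread among these libraries, which may be technical. DESeq2 1.42.0, limma 3.58.1 on log2(RPM + 1) and log2(RPM + 0.1), other scalings, filters and sets of libraries, and the replicate number as a block served as alternatives. Named features were the members, their other arms, a seed partner, the 5 most abundant of the broadly expressed list and the 5 features most like each member by r. Members and lists were chosen with earlier results of these data known. Sequences and coordinates are RefSeq's on GRCm38.p6.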

Additional observations from a re-analysis of the deposited data

How the results depend on the processing

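Across 19 alternatives the log2 change against WT sperm kept its sign for both members in both knockouts. For miR-191-5p in Dicer cKO it was −1.90 with totals of listed reads, −1.78 with the authors' divisor, −1.86 without a low-count filter, −1.81 with at least 10 CPM in 2 libraries, −1.62 with limma at either pseudocount and −2.12 with only the 2 groups compared, and leaving out each library gave −3.24 to −2.33. For miR-425-5p in Dicer cKO it was −2.75 with the divisor, −3.11 without the filter, −3.10 with at least 10 CPM, −2.73 and −2.74 with limma at pseudocounts 1 and 0.1, and −4.65 to −3.14 leaving out each library. In Drosha cKO miR-191-5p was −1.58 with totals alone and −2.98 to −1.997 leaving out each library, and miR-425-5p −4.29 to −2.95.

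The uncalled Dicer cKO minus Drosha cKO changes turned positive with the divisor (0.75 for miR-191-5p, 0.55 for miR-425-5p), without the filter (0.65, 0.38), with at least 10 CPM (0.61, 0.34), with limma at pseudocount 1 (0.92, 0.78) and at 0.1 (0.93, 0.79); leaving out each library gave −0.37 to 0.60 and −0.72 to 0.36, and leaving out Drosha cKO replicates 2 and 3 gave −0.81 and −1.06. The log2 ratio of the members in that comparison ranged from −0.072 to 0.40 leaving out each library. Other results with a sign change included the broadly expressed median in Dicer cKO, at 0.089 with totals alone, 0.13 with the divisor, 0.077 without the filter, 0.11 with at least 10 CPM, and 0.30 and 0.37 with limma, and miR-26a-5p in Drosha cKO, at −0.054 without Drosha cKO replicates 2 and 3 and −0.38 to 0.59 leaving out each library. The stromal marker median in Drosha cKO, 0.65 in the main fit, was −0.35 without WT replicate 2. The cause was not tested.

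Features called numbered 158 in Dicer cKO (65 with limma at 0.1; 112 to 174 leaving out each library) and 185 in Drosha cKO (114 with the divisor, 112 without the filter, 100 with limma at 0.1; 153 to 185 leaving out each library). Between the knockouts 0 became 13 with totals alone, 1 with the divisor, 1 without the filter, 4 with at least 10 CPM, 16 with DESeq2, 2 with limma at 1, 31 with only the 2 groups compared, 8 with the replicate block and 0 to 39 leaving out each library. Broadly expressed miRNAs that fell in Drosha cKO numbered 5, and 3 with totals alone, the divisor, no filter or limma. Same-numbered sperm libraries deviated together (correlation 0.32 to 0.49 over 222 features, 2 numbers shared), but no label ties the numbers to a batch; with the replicate block the members changed by −2.58 and −3.63 in Dicer cKO and −2.36 and −3.43 in Drosha cKO, and 175 and 184 features were called. Depth limits the oocyte and 2PN values. With the divisor as denominator the miR-191-5p ratio over 2PN from WT sperm was 0.81 for 2PN from Dicer cKO sperm (1.54 per listed reads), a change of direction, and 3.14 for 2PN from Drosha cKO sperm (1.59), with an interval above 1.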
